A study of Oreochromis niloticus with 3 samples.

Results

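The genes described here are the 3 enzymes that make and break down the vitamin D hormone, cyp2r1 (LOC100695816), cyp27b1 (LOC100706100) and cyp24a1 (LOC100690876), out of 29605 genes in a table of read counts from the hepatopancreas of the Nile tilapia Oreochromis niloticus. They were found by the NCBI Gene number of the tilapia gene with that symbol, and each symbol had 1 locus. They were chosen by their measured counts and fold changes in these same libraries, so their levels and differences are given as a description and no test was made on them. Juvenile, healthy fish were kept in freshwater (0 psu) or brought in steps of 4 psu per day to 8 or 16 psu, with 3 tanks per salinity. The labels give 5 weeks of rearing and an initial weight of 2.2 g, while the study's methods give a longer time and a lower weight. All fish received a commercial diet. Sex and strain were not given in the sources used here. RNA of 8 fish per salinity was pooled in equal amounts, and each pool gave 1 library, so no difference between salinities has a replicate check. The tank of each fish, the fish and the library cannot be told apart from the salinity.

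Vitamin D enters the fish mainly with the food and becomes a hormone through a pair of hydroxylations. The first, by the microsomal P450 enzyme encoded by cyp2r1, takes place mainly in the liver and gives calcidiol, the form that circulates. The second, by the mitochondrial P450 enzyme encoded by cyp27b1, gives calcitriol, which binds the vitamin D receptor. The mitochondrial P450 enzyme encoded by cyp24a1 hydroxylates the side chain of both products and starts their breakdown. In mammals cyp27b1 is best known from the kidney, and cyp24a1 is among the genes that the activated receptor induces most strongly. In teleost fish the liver is also known as a site of calcitriol synthesis.

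The libraries held between 13628578 and 16112951 counts. In the following, CPM is a count relative to the TMM-scaled library size (1 count is worth 0.0729, 0.0716 and 0.0596 CPM at 0, 8 and 16 psu), intervals cover counting error only, and a fold change is called past the limit when it is above 2 or below 0.5 on the scale of CPM plus 0.5. Differences of a gene given as fold, with their intervals, are ratios of CPM without the added 0.5, while log2 fold changes include it. A gene was kept when any library gave it 10 or more counts, which 16573 of the 29605 genes and all 3 enzymes met. The libraries carried the transcripts of both tissue parts, the fibrinogen genes of hepatocytes (fga 99328, 117945 and 174804 counts at 0, 8 and 16 psu) and prss1 of exocrine pancreas (87540, 132493 and 152874 counts).

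The transcript of the activating enzyme cyp27b1 was lower in both saltwater libraries and that of the degrading enzyme cyp24a1 was higher. For cyp27b1, 5034 reads were counted in the freshwater library, 1232 in that of 8 psu and 1414 in that of 16 psu. They corresponded to 367 CPM (95% exact Poisson interval 357 to 377), 88.2 CPM (83.3 to 93.3) and 84.3 CPM (80.0 to 88.8). The freshwater library stood apart and the intervals of the 2 saltwater libraries overlapped. In fold terms cyp27b1 was 4.16-fold lower at 8 psu than at 0 psu (95% Clopper-Pearson interval 3.91 to 4.43) and 4.35-fold lower at 16 psu (4.10 to 4.62). From 8 to 16 psu it differed by 0.956-fold, with an interval of 0.885 to 1.03 that includes no change.

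The liver enzyme of the preceding step, cyp2r1, had 2122 reads in freshwater, 585 in the 8 psu library and 802 in the 16 psu library. Its level was 155 CPM (148 to 161) in freshwater, 41.9 CPM (38.6 to 45.4) at 8 psu and 47.8 CPM (44.6 to 51.3) at 16 psu. As for cyp27b1, the freshwater library was the high one. The level at 8 psu was 3.69-fold lower than in freshwater (3.37 to 4.06), and that at 16 psu 3.23-fold lower (2.98 to 3.51). Between the saltwater libraries cyp2r1 was 1.14-fold higher at 16 psu (1.03 to 1.27), a difference well within the fold limit. Its sign depends on the scaling, with a log2 fold change of -0.018 under the fibrinogen scaling described below.

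The breakdown enzyme cyp24a1 had 39 reads in freshwater, 790 in the 8 psu library and 1219 in the 16 psu library. This is 2.84 CPM (2.02 to 3.89) in freshwater, 56.6 CPM (52.7 to 60.6) at 8 psu and 72.7 CPM (68.7 to 76.9) at 16 psu. The freshwater library was the low one here, and none of the 3 intervals overlapped. The fold difference from freshwater was 19.9 at 8 psu (14.4 to 28.2) and 25.6 at 16 psu (18.6 to 36.1), with the wide intervals set by the 39 freshwater counts. From 8 to 16 psu cyp24a1 was 1.29-fold higher (1.17 to 1.41).

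**Figure D1:**
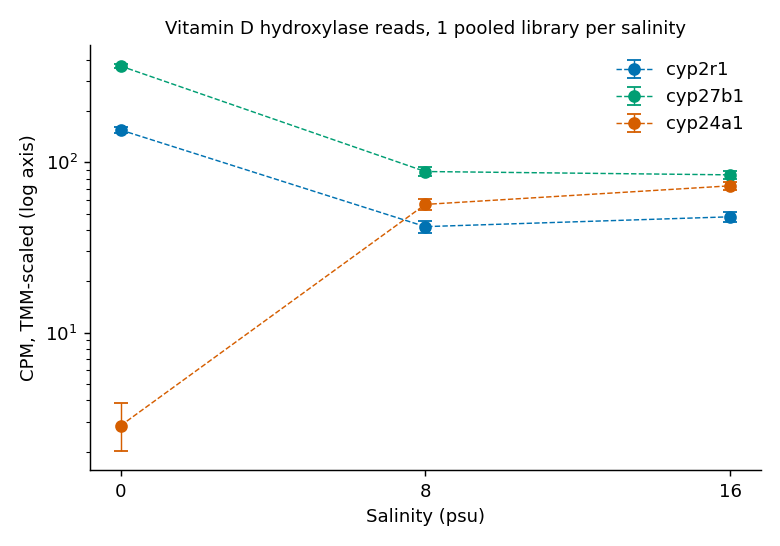
Level of cyp2r1, cyp27b1 and cyp24a1 in CPM on a log axis against salinity in psu, with 1 pooled library per point and bars for exact Poisson 95% intervals. The freshwater library is the highest for cyp27b1 (367 CPM) and cyp2r1 (155 CPM) and the lowest for cyp24a1 (2.84 CPM), while the 8 and 16 psu points lie close to each other.

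On the log2 scale of CPM plus 0.5 the changes from 0 to 8 psu were -1.87 for cyp2r1, -2.05 for cyp27b1 and 4.09 for cyp24a1. From 0 to 16 psu they were -1.68, -2.12 and 4.45 in the same order, and from 8 to 16 psu they were 0.19, -0.06 and 0.36. Thus most of each change lay in the step from freshwater to 8 psu. All 3 genes were past the fold limit in both comparisons with freshwater and 0 of 3 between 8 and 16 psu. Of all genes kept, 9.84% were past the limit in either direction at 8 psu, 11.1% at 16 psu and 5.68% between the saltwater libraries. By direction, 5.41% were past the limit as lower at 8 psu, 4.42% as higher at 8 psu, 5.27% as lower at 16 psu and 5.79% as higher at 16 psu, each against 0 psu. Between 8 and 16 psu the shares were 3.54% higher and 2.14% lower. Because the genes were picked for these differences, nothing is read from their number. Both comparisons with freshwater use the same freshwater library, so they do not repeat each other.

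In the order of all 16573 genes kept, cyp24a1 had rank 2 from the highest log2 fold change at 8 psu against 0 psu and rank 4 at 16 psu. Counted from the lowest fold change, cyp27b1 had rank 92 at 8 psu and rank 83 at 16 psu, and cyp2r1 ranks 125 and 174. The scatter of all genes shows cyp24a1 at the upper right and the other enzymes at the lower left, inside the tail of the main cloud. Distances were measured only to the genes searched for a similar pattern below.

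**Figure D2:**
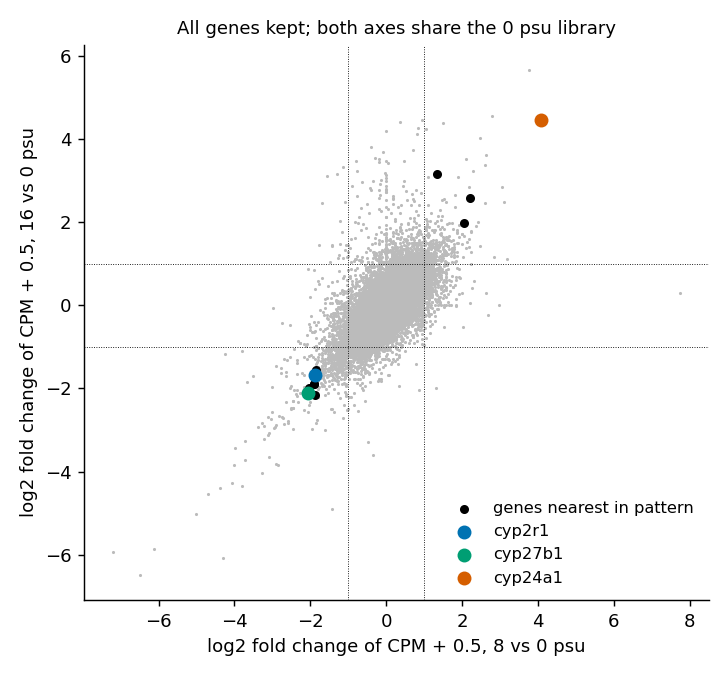
Log2 fold change of CPM plus 0.5 at 8 psu (horizontal) and at 16 psu (vertical) against the same freshwater library, for all 16573 genes kept (grey), the 3 enzymes (colours) and the genes nearest to them in pattern (black). Dotted lines mark the fold limits of 2 and 0.5, and cyp24a1 lies at 4.09 and 4.45.

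The balance of synthesis and breakdown was taken as the ratio of reads of the enzymes within a library, which does not depend on the library size. Transcript lengths were not used, so a ratio of 1 has no meaning of its own and only its change between libraries is described. In freshwater there were 129 cyp27b1 reads per cyp24a1 read (95% Clopper-Pearson interval 94.3 to 182). At 8 psu the ratio was 1.56 (1.43 to 1.71) and at 16 psu 1.16 (1.07 to 1.25). The cyp27b1 to cyp24a1 ratio was thus 82.8-fold lower at 8 psu than in freshwater (exact conditional interval 59.5 to 118) and 111-fold lower at 16 psu (80.4 to 158). Between 8 and 16 psu it moved once more in the same direction, by 1.34-fold (1.19 to 1.52). How this change divides between the genes depends on the scaling. With TMM the log2 fold changes were 0.36 for cyp24a1 and -0.06 for cyp27b1. With the fibrinogen scaling described below they were 0.15 and -0.27.

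The ratio of cyp2r1 to cyp24a1 reads was 54.4 in freshwater (39.7 to 76.7), 0.741 at 8 psu (0.664 to 0.825) and 0.658 at 16 psu (0.601 to 0.720). It was 73.5-fold lower at 8 psu (52.4 to 105) and 82.7-fold lower at 16 psu (59.4 to 118) than in freshwater. From 8 to 16 psu it was 1.13-fold lower with an interval of 0.977 to 1.30, so that a change of this ratio between the saltwater libraries was not detectable at this depth.

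The activating enzymes moved nearly in step. The ratio of cyp2r1 to cyp27b1 reads was 0.422 in freshwater (0.400 to 0.444), 0.475 at 8 psu (0.430 to 0.524) and 0.567 at 16 psu (0.519 to 0.619). Relative to freshwater it was 1.13-fold higher at 8 psu (1.01 to 1.26) and 1.35-fold higher at 16 psu (1.22 to 1.49). Hence cyp27b1 was reduced somewhat more than cyp2r1 in the 16 psu library. As a share of the reads of the 3 genes, cyp24a1 took 0.542% in freshwater, 30.3% at 8 psu and 35.5% at 16 psu, and cyp27b1 took 70.0%, 47.3% and 41.2%.

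**Figure D3:**
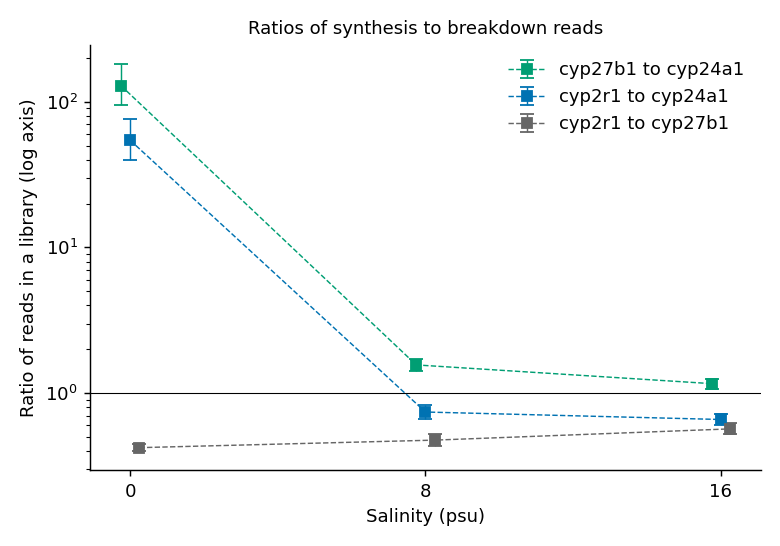
Ratio of reads within each library on a log axis against salinity in psu for cyp27b1 to cyp24a1, cyp2r1 to cyp24a1 and cyp2r1 to cyp27b1, with bars for 95% Clopper-Pearson intervals and points shifted slightly sideways for legibility. Both ratios to cyp24a1 drop between freshwater and 8 psu (129 to 1.56 and 54.4 to 0.741), whereas the cyp2r1 to cyp27b1 ratio goes from 0.422 to 0.567.

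The scaling of the libraries does not touch these ratios, but it touches the folds. Unscaled library sizes moved the middle of the distribution, a median log2 value over the kept genes of 0.12 at 8 psu and 0.14 at 16 psu against freshwater. The genes past the limit at 8 psu were then 992 higher against 704 lower, where TMM gave 733 against 897. For 16 psu the split was 1244 against 666, where TMM gave 960 against 874. Scaled to the reads of fga, fgb and fgg, an alternative chosen after the data were seen, the median was -0.09 and -0.27, and the split was 616 against 1133 at 8 psu and 565 against 1692 at 16 psu. Between 8 and 16 psu that scaling gave 426 higher and 584 lower in place of 586 and 355. In these alternatives all 3 enzymes kept their direction and their side of the fold limit against freshwater.

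Around the 3 enzymes, 58 symbols of the vitamin D and mineral pathways were looked up. For 45 of them 52 loci were found, of which 35 were kept and 6 had 0 counts in all libraries. Among the 35 loci 0 were past the limit as higher and 2 as lower at 8 psu, and 0 and 3 at 16 psu, against freshwater, beside the shares of all genes given above. Their median log2 fold change was -0.07 at 8 psu and -0.02 at 16 psu, and that of all genes 0.00 and 0.01. Between 8 and 16 psu 0 of 35 loci were past the limit with TMM. With the fibrinogen scaling the coactivator gene ncoa1 passed it as lower at 16 psu (-1.08, against -0.92 with TMM).

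The 3 loci past the limit were rxrgb, ncor1 and fgfr4. The gene rxrgb encodes a retinoid X receptor, the partner with which the vitamin D receptor binds DNA, and had 1309, 550 and 451 counts at 0, 8 and 16 psu. It was 2.42-fold lower at 8 psu (2.19 to 2.68) and 3.55-fold lower at 16 psu (3.19 to 3.96) than in freshwater. The other retinoid X receptor loci were within the limit, rxraa with 283, 204 and 221 counts and rxrbb with 533, 555 and 566. No locus carried a symbol of the vitamin D receptor itself in the gene name table, and it was not analysed here.

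Among 7 kept loci of receptor coregulators only ncor1, which encodes a nuclear receptor corepressor, was past the limit. It had 1943, 1370 and 1034 counts and was 2.30-fold lower at 16 psu than in freshwater (2.13 to 2.48), while at 8 psu its log2 fold change was -0.53. The coactivator genes ncoa1, ncoa2 and ncoa3 had log2 fold changes of 0.32, 0.80 and 0.24 at 8 psu and of -0.60, 0.31 and 0.02 at 16 psu, the last of these -0.28 with the fibrinogen scaling.

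Of the mineral hormone genes fgfr4, a fibroblast growth factor receptor, was past the limit with 70, 19 and 15 counts, which is 3.75-fold lower at 8 psu (2.23 to 6.60) and 5.71-fold lower at 16 psu (3.23 to 10.7). In mammals klotho, the product of kl, makes such receptors responsive to FGF23, a bone hormone that represses cyp27b1 and induces cyp24a1 in the kidney. Here kl had 2476, 2209 and 3460 counts. Its log2 fold changes were -0.19 and 0.19 at 8 and 16 psu, the latter -0.12 with the fibrinogen scaling. The gene fgf23 had 0 counts in each library. Levels up to a fixed floor of 3 counts, or 0.219, 0.215 and 0.179 CPM at 0, 8 and 16 psu, remain possible. This floor is a setting and not the Poisson interval used for the enzymes. The calcium-sensing receptor casr and the parathyroid hormone receptor pth1r also had 0 counts in each library. The stanniocalcin genes, whose hormone lowers calcium uptake in fish, were within the limit, with 10, 9 and 25 counts for stc1 and 39, 54 and 58 for stc2a.

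The carrier of vitamin D in plasma, gc, had no locus of that symbol and was not analysed here. Of the endocytic receptors that take up the carrier in mammalian kidney, lrp2a (megalin) had 155, 82 and 107 counts, with log2 fold changes of -0.89 at 8 psu and -0.78 at 16 psu, and cubn (cubilin) had 48, 24 and 35 counts, with -0.85 and -0.63. Both were within the limit with TMM, and lrp2a passed it at 16 psu (-1.07) when the libraries were scaled to fga, fgb and fgg. The second megalin locus lrp2b had 0, 1 and 5 counts, and amn, the partner of cubilin, had 0 counts in each library.

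The genes that govern the precursor sterol were within the limit. The gene dhcr7, whose enzyme turns the vitamin D precursor into cholesterol, had 661, 824 and 1098 counts at 0, 8 and 16 psu, with log2 fold changes of 0.29 at 8 psu and 0.44 at 16 psu against freshwater. The gene sc5d, whose enzyme makes that precursor, had 2299, 3048 and 4798 counts and log2 fold changes of 0.38 and 0.77. The isomerase gene ebp had 807, 600 and 1037 counts with -0.45 and 0.07, the latter negative with the fibrinogen scaling (-0.24).

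The other kept hydroxylase was within the limit as well. The P450 gene cyp27c1, whose enzyme desaturates retinoids in zebrafish, had 366, 474 and 488 counts, with log2 fold changes of 0.34 and 0.12 at 8 and 16 psu, and the latter was -0.19 with the fibrinogen scaling. The cyp27a genes encode sterol hydroxylases, of which the mammalian enzyme can also make calcidiol. The locus cyp27a1.1 had 0, 1 and 5 counts. The paralogs cyp27a2 and cyp27a3 were looked up after their values were seen. The counts were 34, 28 and 26 for cyp27a2 and 2672, 2150 and 2313 for cyp27a3, with log2 fold changes of -0.34 and -0.50 at 8 and 16 psu for cyp27a3, within the limit.

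The P450 enzymes need electrons from partner proteins, and none of the 5 kept loci looked up as possible partners was past the limit. Ferredoxin reductase, fdxr, serves the mitochondrial enzymes of cyp27b1 and cyp24a1 alike and had 353, 224 and 322 counts, with log2 fold changes of -0.67 at 8 psu and -0.41 at 16 psu. The ferredoxin gene fdx2 had 13, 13 and 24 counts, and no locus of the symbol fdx1 was found, so fdx1 was not analysed here. Whether fdx2 serves these enzymes was not tested. P450 reductase, porb, serves the microsomal enzyme of cyp2r1 and had 1812, 2202 and 3410 counts, with 0.25 and 0.62. For cytochrome b5, cyb5a had 5924, 4796 and 6022 counts and its reductase cyb5r3 had 287, 196 and 229, with log2 fold changes between -0.60 and -0.27.

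The calcium and phosphate transporters, some of them calcitriol targets in the gut and kidney of mammals, had 7 kept loci with 0 past the limit. The plasma membrane calcium pump atp2b1a had 279, 379 and 419 counts. The phosphate transporter slc20a1b had 2846, 1845 and 1914, with log2 fold changes of -0.65 and -0.86 at 8 and 16 psu. Other phosphate transporter loci went the other way. The locus slc20a2 had 478, 631 and 906 counts (0.37 and 0.63). The locus slc20a1a had 91, 113 and 124 counts (0.27 and 0.15, the latter -0.15 with the fibrinogen scaling). With the fibrinogen scaling slc20a1b passed the limit at 16 psu (-1.17). The epithelial calcium channel trpv5 had 2, 1 and 5 counts.

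**Figure D4:**
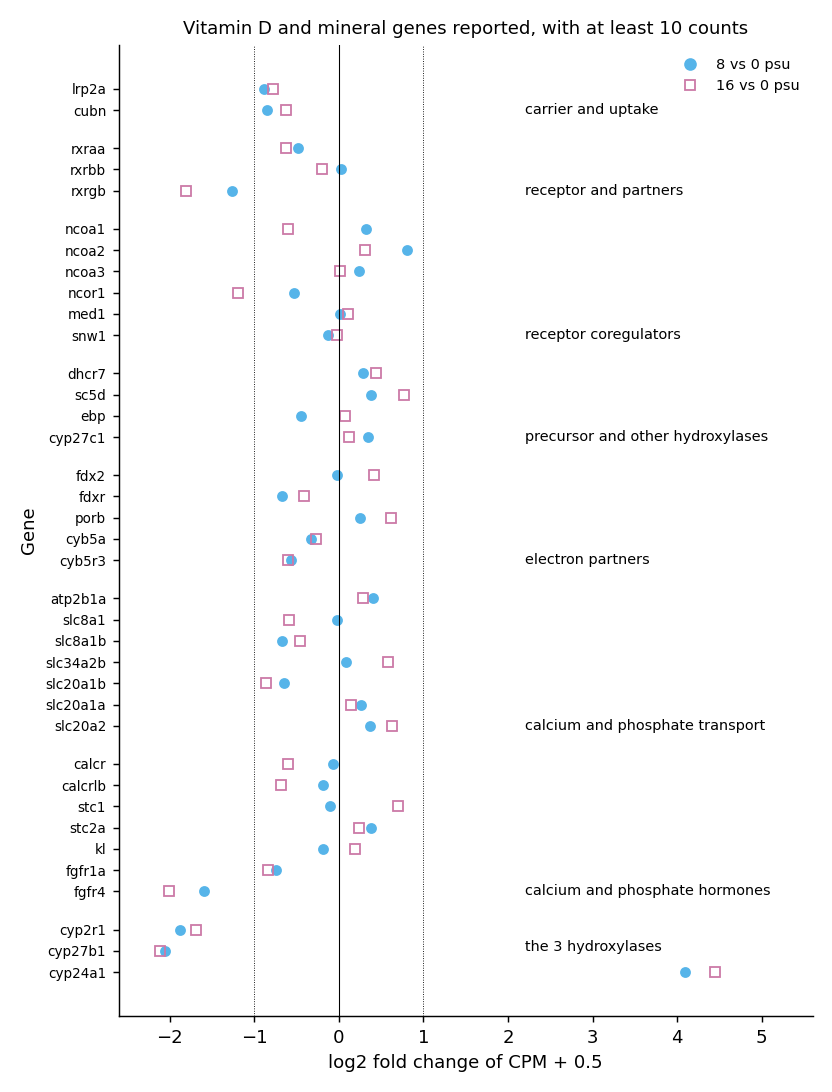
Log2 fold change of CPM plus 0.5 at 8 psu (circles) and 16 psu (squares) against freshwater for the reported kept loci of the vitamin D and mineral lists and, at the bottom, the 3 enzymes. Dotted lines mark the fold limits; outside the 3 enzymes only rxrgb, fgfr4 and, at 16 psu, ncor1 (-1.19) lie beyond them.

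Genes with the most similar pattern were sought among 6296 genes with a symbol and at least 100 counts in a library, by the Euclidean distance in the pair of log2 fold changes against freshwater, over 3 libraries. Nearest to cyp27b1 was vtg, which encodes the egg yolk precursor vitellogenin, with 6407, 1588 and 1965 counts and a distance of 0.13. It was followed by desma, a desmin gene, with 202, 51 and 49 counts (0.18), and the claudin gene cldn15a with 100, 22 and 27 counts (0.27).

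Nearest to cyp2r1 were aclya, the ATP citrate lyase of fatty acid and sterol synthesis, with 4237, 1195 and 1713 counts (distance 0.10), the galectin gene lgals3b with 251, 66 and 99 counts (0.13), and again cldn15a (0.20). For cyp24a1 none of the 6296 genes searched came close, and genes without a symbol were not searched. The nearest were otc (ornithine carbamoyltransferase) with 10, 73 and 115 counts at a distance of 2.65, mrc2 (a mannose receptor) with 60, 165 and 726 counts (3.04), and dpf3 with 17, 94 and 106 counts (3.21). The minimum of 100 counts was met in freshwater only by desma, cldn15a and lgals3b, and at 16 psu only by otc and dpf3. For mrc2 it was met in the saltwater libraries only. Likeness over 3 single libraries is a description and carries no statement on shared control.

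The position of the genes was taken from the order in the RefSeq annotation of another assembly (O_niloticus_UMD_NMBU) than that used for mapping, and the neighbours were looked up after their values were seen. The 3 nearest kept genes on each side were examined. All 6 neighbours of cyp27b1 were lower in both saltwater libraries than in freshwater, with log2 fold changes from -1.11 to -0.52 at 8 psu and from -1.45 to -0.64 at 16 psu, against -2.05 and -2.12 for cyp27b1. Past the limit were 2 of the 6 at 8 psu (mettl1 and suox) and 3 at 16 psu (cdk4, mmp19 and LOC100705835). Of all genes kept, 5.41% were past the limit as lower at 8 psu and 5.27% at 16 psu. Counts were low for mmp19 (19, 9 and 7) and LOC100705835 (23, 9 and 5), and both met the count minimum in freshwater only. Nothing is therefore read from the number of neighbours that were lower or past the limit. Counts were 78, 35 and 51 for mettl1 and 299, 157 and 140 for cdk4. With unscaled library sizes 0 and 2 of the 6 were past the limit, with the fibrinogen scaling 4 and 4, and all 6 were below 0 in each case. The gene suox, sulfite oxidase, at the second place on one side, had 3054, 1442 and 2385 counts.

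The genes around cyp2r1 and cyp24a1 went in both directions. Of the 6 neighbours of cyp2r1, 2 were lower at 8 psu and 3 at 16 psu, and 1 (nucb2a, 246, 236 and 629 counts) was past the limit at 16 psu, as higher, though within it with the fibrinogen scaling (0.73). Of those of cyp24a1, 4 were lower at 8 psu and 3 at 16 psu, and LOC100692023 was past the limit as lower in both comparisons, with 2380, 1027 and 1434 counts. At 16 psu it was within the limit with unscaled library sizes (-0.87) and with upper quartile scaling (-0.99). In that annotation pde3b overlaps cyp2r1. How strand was treated in counting is not given in the sources used here, so reads of the shared stretch could be assigned to either gene. The counts of pde3b were 223, 288 and 259, so it did not follow cyp2r1. The gene cyp24a1 overlaps LOC109202224 in the same annotation, a locus that is not in the count table. Reads of LOC109202224 from the shared stretch could therefore be counted for cyp24a1. No gene overlaps cyp27b1 there.

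**Figure D5:**
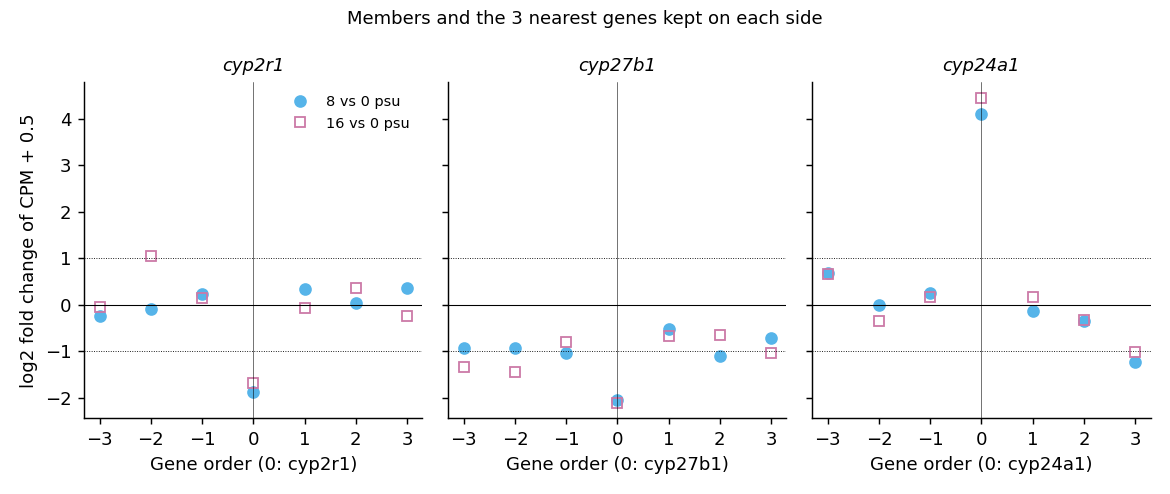
Log2 fold change of CPM plus 0.5 at 8 psu (circles) and 16 psu (squares) against freshwater for each enzyme gene (position 0) and the 3 nearest kept genes on either side, by gene order. All 6 neighbours of cyp27b1 lie below 0 but above cyp27b1, and those of cyp2r1 and cyp24a1 lie on both sides of 0 or near it.

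Markers of other cell types were summed in each library. In pooled tissue a smaller number of cells of a type and less RNA per cell cannot be told apart. Of the 5 kept enterocyte loci 4 were past the limit as lower at both salinities, beside 5.41% of all genes kept at 8 psu and 5.27% at 16 psu. Of them fabp2, slc15a1b and apoa4a met the count minimum in freshwater only, so nothing is read from this number. The 9 enterocyte loci summed to 1258 CPM in freshwater, 193 at 8 psu and 173 at 16 psu, which is the direction of cyp27b1 and cyp2r1. Most of this was the apolipoprotein gene apoa4b (17110, 2673 and 2874 counts). The other 8 loci summed to 148, 26 and 28 counts, with fabp2 and slc15a1b at 23, 0 and 0 counts each, apoa4a at 83, 0 and 3, and both mep1a loci at 0. The kept locus anpepa went the other way, with 15, 24 and 24 counts (log2 0.48 and 0.28, within the limit), and held most of the remaining saltwater counts. Their part in the fall of cyp27b1 and cyp2r1 was not tested.

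The 7 kidney loci, from the organ in which mammalian cyp27b1 and cyp24a1 are mainly studied, summed to 12, 9 and 1 counts. Of these, nphs1, pax8 and slc22a6l were at 0 in each library, slc12a1 had 12, 0 and 1 counts, slc12a3 had 0, 6 and 0, and cdh16 had 0, 3 and 0. Only slc12a1 was kept, and it was past the limit as lower at 8 and 16 psu (log2 -1.46 and -1.30). It met the count minimum in freshwater only, so nothing is read from its difference. The 6 macrophage loci summed to 75.1, 113 and 85.7 CPM, with spi1b (47, 109 and 108 counts) past the limit as higher at 8 psu (1.08). The sums were 168, 189 and 159 CPM for the 4 erythrocyte loci and 7964, 11183 and 10965 CPM for the 3 exocrine pancreas loci. Of the 4 islet loci 3 were at 0, and pdx1 had 156, 155 and 187 counts. The 10 skeletal muscle loci summed to 13.5, 6.09 and 86.2 CPM. Past the limit as higher at 16 psu were acta1b (62, 17 and 724 counts), mylpfa (44, 9 and 336), atp2a1l (3, 11 and 225), actn3b (10, 7 and 55), mylpfb (9, 8 and 35) and ryr1b (0, 1 and 16), of which acta1b and mylpfa were past it as lower at 8 psu. The locus atp2a1 (13, 3 and 3) was past it as lower at both salinities, and tpm2 (34, 23 and 35) was within it. Of all genes kept, 5.79% were past the limit as higher at 16 psu. The loci mylpfb and ryr1b met the count minimum at 16 psu only, and atp2a1 in freshwater only. Nothing is therefore read from the number of muscle loci past the limit. The part of muscle transcripts in the differences of the enzymes was not tested. The 8 hepatocyte loci summed to 37058, 31867 and 36776 CPM, among them fabp10a, a liver fatty acid binding protein, with 179465, 74983 and 75667 counts, past the limit as lower at both salinities. In the same list CP, which encodes the copper carrier ceruloplasmin, had 17820, 32946 and 76778 counts and was past the limit as higher at 16 psu (log2 1.82, and 0.86 at 8 psu). Hepatocyte markers of the list thus differed among themselves.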

How the data were processed

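Per the methods and the submitters' processing notes, the authors sequenced poly(A) RNA on Ion Proton, mapped reads with MapSplice to Orenil1.1 and name HTSeq among their tools; its settings are not given in the sources used here. The deposited values are raw read counts per gene, 1 pooled library per salinity, without normalization. Symbols came from the RefSeq table of another assembly, which named 13937 of 27855 locus numbers, and from its coordinates only gene order and overlaps were taken. Sequences and transcript lengths were not used here.

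Genes with at least 10 counts in 1 library were kept. Library sizes were scaled by TMM (edgeR 4.0.16, R 4.3.3). Log2 fold changes used CPM plus 0.5, and differences given as fold with an interval used CPM without it. Exact 95% intervals of counts, shares and ratios (scipy 1.17.1) cover counting error only, since each salinity has 1 pooled library. PCR duplicates are not marked, so these intervals can be too narrow. With 1 library per salinity no quasi-likelihood or DESeq2 test could be fitted and the EB-Seq test of the study was not run. The fold and interval code was tested on simulated data. Alternatives were DESeq2 1.42.0 size factors, upper quartile, total counts and fibrinogen reads as scaling (the last added after seeing the data), other pseudocounts, count minimums and fold limits, and, for the ratios, all matching loci and 0.5 added reads.

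The members and gene lists were chosen with earlier results of these data known. Named are the 3 enzymes, all loci of the carrier, receptor, precursor and electron partner lists, loci of other lists past the fold limit, and the 3 genes nearest in pattern to each enzyme. Other names were chosen after their values were seen. Some loci of the lists are counted in the totals but not reported here by name.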

Additional observations from a re-analysis of the deposited data

How the results depend on the processing

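All 3 enzymes kept their direction and their side of the 2-fold limit against freshwater under every scaling and pseudocount tried. With a limit of 4 and TMM, cyp27b1 and cyp24a1 passed and cyp2r1 did not. Among the recomputed fold changes of the enzymes 43 moved by less than the counting error and 11 by more. The latter were, with total counts, -1.92 at 8 psu and -1.97 at 16 psu for cyp27b1 and -1.53 at 16 psu for cyp2r1. With fibrinogen scaling they were -2.16, -2.43 and, for 16 vs 8 psu, -0.27 for cyp27b1, and 0.15 for cyp24a1 (16 vs 8 psu). For cyp2r1 they were -1.996 (16 vs 0 psu) and -0.018 (16 vs 8 psu), the latter within the limit and with its sign reversed. With a pseudocount of 2 CPM cyp24a1 was at 3.60 and 3.95, since it has 2.84 CPM in freshwater. The ratios of reads stayed within their intervals in 36 of 36 recomputations; each symbol had 1 locus, so the alternative of all loci changed nothing. The median of all pathway loci, 16 vs 8 psu, was -0.10 with TMM and -0.25 with fibrinogen scaling. That of all genes kept was 0.00 and -0.18, so it moved the same way. Why the scalings differ from each other was not tested.

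The number of genes past the limit, which is the background here, moved more. In the order 8 vs 0 higher and lower, 16 vs 0 higher and lower, 16 vs 8 higher and lower, it was 733, 897, 960, 874, 586 and 355. A pseudocount of 2 CPM gave 158, 385, 330, 404, 221 and 61, a minimum of 100 counts 193, 395, 337, 391, 210 and 74, a fold limit of 1.5 gave 2374, 2401, 2581, 2432, 1664 and 1507, and a limit of 4 gave 38, 102, 114, 99, 104 and 15. A pseudocount of 0.1 CPM gave 1353, 1306, 1525, 1263, 970 and 738. Fibrinogen scaling gave 616, 1133, 565, 1692, 426 and 584. No paired analysis was possible because each salinity has 1 library, and no library could be left out. The 39 counts of cyp24a1 in freshwater limit the precision of its fold and of both ratios to it.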

Other observations

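The breakdown enzymes of another lipid hormone, retinoic acid, are P450 enzymes as well, and their genes were chosen after their values were seen. The gene cyp26a1, whose enzyme degrades retinoic acid, had 184, 838 and 659 counts at 0, 8 and 16 psu. It was 4.47-fold higher at 8 psu (95% Clopper-Pearson interval 3.81 to 5.27) and 2.93-fold higher at 16 psu (2.48 to 3.47) than in freshwater, and it peaked at 8 psu, unlike cyp24a1. Its paralog cyp26b1 had 53, 144 and 10 counts, with log2 fold changes of 1.31 at 8 psu and -1.99 at 16 psu, so the 2 paralogs took opposite directions at 16 psu. The third paralog, cyp26c1, had 0 counts in each library.

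The retinoic acid synthesis gene aldh1a2 had 491, 411 and 574 counts and was within the limit at both salinities, with log2 fold changes of -0.28 and -0.06, the latter 0.08 with total counts. Other retinoid genes were past the limit. The retinol dehydrogenase gene rdh10a (8, 24 and 15 counts) was higher at 8 psu (1.03, and 0.98 with the fibrinogen scaling). Its fold of 2.95 had a wide interval (1.28 to 7.59). It met the count minimum in the saltwater libraries only, so nothing is read from its difference. The gene dhrs3b, whose enzyme reduces retinal to retinol, was lower at 16 psu (21, 8 and 6 counts, -1.24). It met the count minimum in freshwater only, so nothing is read from its difference. The carotene-cleaving gene bco1 (349, 417 and 245 counts) was lower at 16 than at 8 psu (-1.01, and -0.99 with total counts). These genes were also chosen after their values were seen, so nothing is read from their number. The plasma carrier of retinol, rbp4, had 18468, 31421 and 34730 counts (0.74 and 0.62). The retinoic acid receptor genes had log2 fold changes at 16 psu of 1.04 for rarab, -0.54 for raraa and -0.01 for rarga, of which rarab alone was past the limit, and its value was 0.75 with the fibrinogen scaling.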
